A study of Mus musculus with 6 samples.

Results

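A set of 30 genes that mark the cells around the lens were followed, array by array, in newborn lenses with and without Hsf4, the heat shock transcription factor of the lens. They comprised 9 vascular (endothelial) markers, 14 macrophage markers and 7 pigment cell markers. A gene was measured where a probe set of the array was annotated with its symbol, or an older name of it, and with no other gene, and of several such probe sets the one with the highest mean log2 intensity was used. By this rule 29 of the 30 genes were measured, out of 12393 genes with such a probe set, and the melanosome protein gene Mlana had none. All values below are log2 of the deposited intensity, and a difference is the Hsf4-null mean minus the wild-type mean on that scale.

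There were 6 arrays, 3 for the wild-type and 3 for the Hsf4-null genotype (labelled HSF4 null), each from 50 ng of total RNA and each a biological replicate. Every array held lenses taken from newborn mice, and the labels give ICR as the strain of both genotypes. Neither the labels nor the methods say how the null allele was made, how many animals went into an array or whether the genotypes were littermates. Hsf4 itself lay between 9.09 and 9.56 in wild-type and between 3.78 and 4.26 in Hsf4-null lenses (adjusted p = 9.54e-06), which matches the labels. Transcripts of Cryaa, the alpha-A crystallin gene of the lens, lay between 13.98 and 14.06 on all 6 arrays.

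The lens has no vessels of its own. Before and shortly after birth it is wrapped in the tunica vasculosa lentis, a transient capillary net fed by the hyaloid artery, and macrophages sit on these capillaries and clear them as they regress. In front of and beside the lens lie the iris and ciliary body, whose epithelial layers and stromal melanocytes transcribe the pigment genes, in albino stocks such as ICR as well. The members were read here as signs of that tissue in the lens samples. In bulk RNA, fewer cells of a type and less RNA per cell cannot be told apart.

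All 3 groups had higher mean levels in Hsf4-null lenses, but no single member passed the test. The macrophage difference, and to a lesser extent the pigment difference, depended on single arrays. The median difference was 0.26 for the 9 vascular, 0.29 for the 14 macrophage and 0.96 for the 6 measured pigment markers, against 0.01 for all 12393 genes. Within groups the replicates were far apart for these genes. The median within-group SD was 0.27 for vascular, 0.57 for macrophage and 0.61 for pigment markers, against 0.15 for all genes and 0.14 for the 6413 genes above the array median on every array.

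The test was limma's moderated test over all 22626 probe sets, with Benjamini-Hochberg adjustment and a call at an adjusted p under 0.05. It called 602 probe sets, which is 2.66%. Counted once per gene, 357 genes were called (2.88%), 96 of them higher in Hsf4-null lenses (0.775%) and 261 lower (2.11%). Of the 29 members, 0 were called in either direction, and the lowest adjusted p was 0.066, for Aif1. At an unadjusted p under 0.05, 9 members passed, all with higher Hsf4-null means, against 15.7% of all genes, and the members' share was 31%. The Student's t-test that the methods combine with SAM was run alone on the same values. Without adjustment it called 4 of the 29 members, against 2912 of all 22626 probe sets. With a Benjamini-Hochberg adjustment added here it called 0 members. For 5 members all 3 Hsf4-null arrays lay above all 3 wild-type arrays, a share of 17.2% against 10.1% of all genes. For 0 members did they all lie below, which 11.5% of all genes did.

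**Figure D1:**
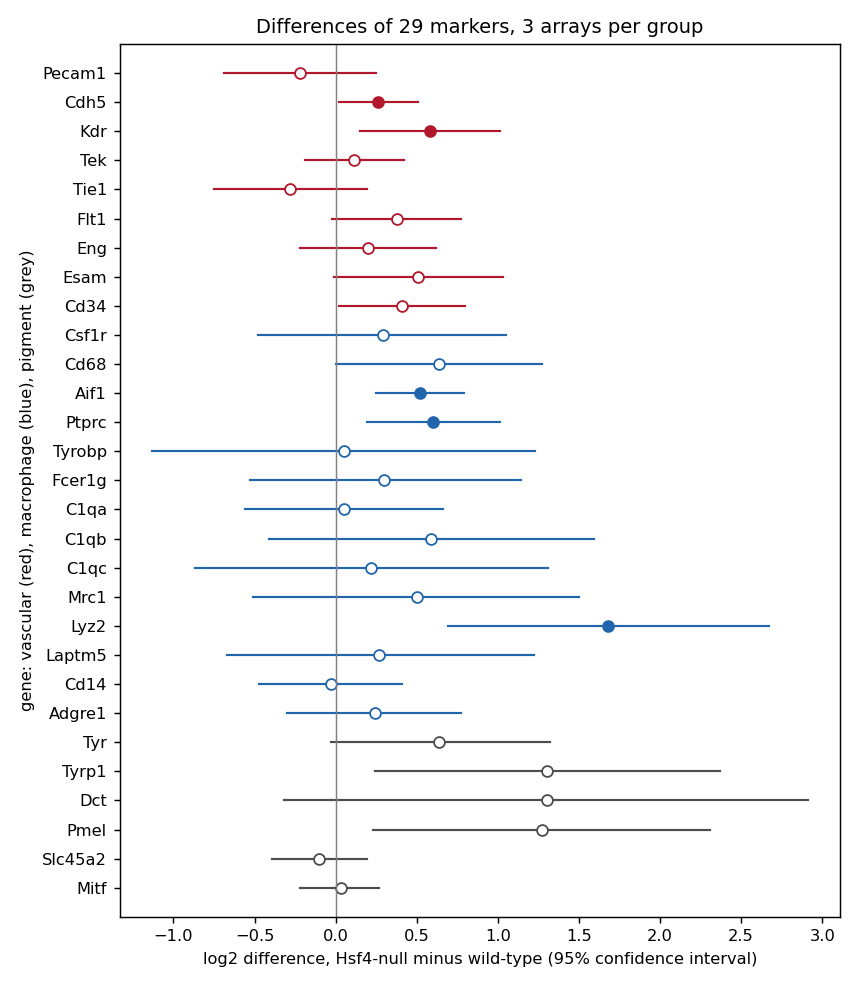
The log2 difference, Hsf4-null minus wild-type, of each of the 29 measured markers (x axis) with limma's 95% confidence interval, for 3 arrays per group. Filled points are the 5 genes whose Hsf4-null arrays all lay above the wild-type arrays, and the means of 25 genes were higher and of 4 lower in Hsf4-null lenses.

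The vascular markers comprise receptors for vascular growth signals, junction proteins of the vessel wall and surface proteins of endothelial cells. Among the receptors, Kdr, the main receptor for VEGF-A on endothelium, read 7.50, 7.64 and 7.29 in wild-type and 8.35, 7.67 and 8.15 in Hsf4-null lenses. The groups did not overlap, although Hsf4-null replicate 2 lay close to the highest wild-type array. The difference was 0.58 (SE 0.18, 95% confidence interval 0.15 to 1.01, 1.49-fold), with an adjusted p of 0.186, the lowest of the 9. Leaving out 1 array at a time gave differences of 0.43 to 0.77. Flt1, the other VEGF receptor of the list, had a difference of 0.38 (adjusted p = 0.346), and its groups overlapped. Its other probe sets, dim on every array, gave -0.12 and 0.18. The angiopoietin receptor Tek and its relative Tie1 had differences of 0.11 and -0.28, with adjusted p of 0.74 and 0.564.

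Of the junction genes, Cdh5, which encodes VE-cadherin, read 5.41, 5.18 and 5.15 in wild-type and 5.52, 5.51 and 5.51 in Hsf4-null lenses. The Hsf4-null arrays were almost level with each other and all lay above the wild-type arrays, with a difference of 0.26 (SE 0.10, adjusted p = 0.282). The other probe set of Cdh5, dim on every array, gave 0.12 with overlapping groups. Esam, an adhesion molecule of endothelial tight junctions, read 6.35, 5.69 and 5.45 against 6.48, 6.39 and 6.15. Wild-type replicate 1 reached into the Hsf4-null range, and the difference of 0.51 had an adjusted p of 0.331. Pecam1, the widely used CD31 marker, read 4.94, 4.43 and 4.49 against 4.76, 4.34 and 4.08, with overlapping groups and a difference of -0.22 (adjusted p = 0.662). Neither Pecam1 nor Tie1 exceeded the array median on any array.

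Cd34, a surface glycoprotein of endothelial and progenitor cells, read 8.37, 8.0 and 7.75 in wild-type and 8.47, 8.59 and 8.28 in Hsf4-null lenses. Here too wild-type replicate 1 lay inside the Hsf4-null range, and the difference was 0.41 (adjusted p = 0.307). Eng, a co-receptor for TGF-beta on endothelium, had a difference of 0.20 (adjusted p = 0.651), and its other probe set gave 0.31. For 8 of the 9 vascular genes wild-type replicate 1 was the highest of the wild-type arrays, against 3466 of all 12393 genes. The 6 members above the array median on every array all had higher Hsf4-null means, with a median difference of 0.39. Of all 6413 genes above it on every array, 3282 had higher means. This choice leaves out Cdh5 and also Pecam1 and Tie1, the vascular genes with lower Hsf4-null means.

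**Figure D2:**
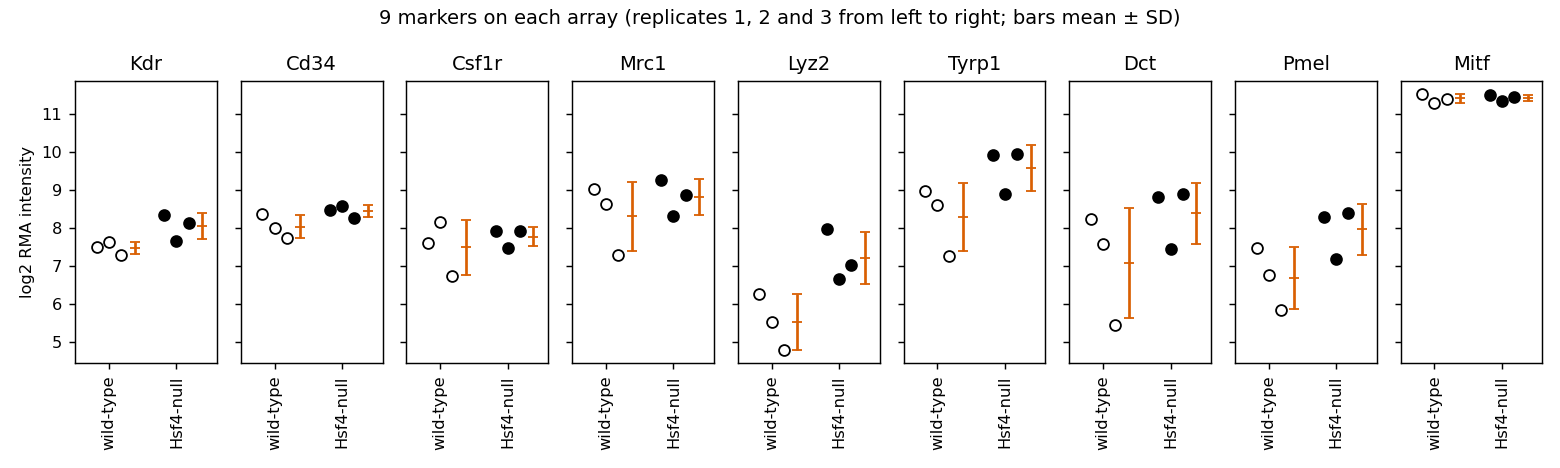
Log2 RMA intensity (y axis) of 9 of the markers on each array, with wild-type arrays as open and Hsf4-null arrays as filled points, replicates 1 to 3 from left to right, and the mean ± SD of 3 arrays in orange. Wild-type replicate 3 is the lowest of the 6 arrays for Kdr, Cd34, Csf1r, Mrc1, Lyz2, Tyrp1, Dct and Pmel, whereas Mitf stays within 0.23.

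The macrophage markers had a median within-group SD of 0.57, against a median difference between genotypes of 0.29. Wild-type replicate 3 was the lowest of all 6 arrays for 14 of the 14 genes, against 19.7% of all genes, and Hsf4-null replicate 2 was the lowest Hsf4-null array for 11 of them, against 34.6% of all genes. Csf1r, the receptor that macrophages need to survive, read 7.61, 8.16 and 6.73 in wild-type and 7.93, 7.48 and 7.94 in Hsf4-null lenses. The highest and the lowest of the 6 values both belonged to wild-type lenses, and the difference of 0.29 had an adjusted p of 0.731. The other probe sets of Csf1r gave 0.27 and -0.13, the last dim on every array.

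The 3 genes of C1q, the recognition molecule that starts the classical complement cascade and is made largely by tissue macrophages, shared their lowest arrays. C1qa read 4.85, 4.66 and 3.98 in wild-type and 4.77, 4.10 and 4.76 in Hsf4-null lenses. C1qb read 7.72, 7.90 and 6.33 against 8.04, 7.31 and 8.37. C1qc read 5.74, 5.05 and 4.12 against 5.98, 4.47 and 5.13. In each of the 3 genes wild-type replicate 3 was the lowest array and Hsf4-null replicate 2 the next lowest, and their differences were 0.05, 0.59 and 0.22, with adjusted p of 0.951, 0.572 and 0.866. The other probe sets of C1qb gave 0.55 and 0.32. Wild-type replicate 3 was also the lowest array for the remaining surface and signalling genes. Mrc1, the mannose receptor of resident macrophages, read 9.03, 8.63 and 7.30 against 9.26, 8.31 and 8.88, with a difference of 0.50 (adjusted p = 0.642). Adgre1, a surface receptor much used to stain mouse macrophages, read 4.77, 4.67 and 4.03 against 4.83, 4.37 and 4.98, with a difference of 0.24 (adjusted p = 0.68). The adaptor genes Tyrobp and Fcer1g and the lysosomal gene Laptm5 had differences of 0.05, 0.30 and 0.27, and each ranged over 1.48 to 1.91 from the lowest to the highest array. The other probe sets of Laptm5, dim on every array, gave -0.08 and -0.02.

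For 3 of the 14 macrophage genes, Lyz2, Ptprc and Aif1, all Hsf4-null arrays lay above all wild-type arrays. This was 21.4% of the group, against 10.1% of all genes, and the 3 genes are set apart here only by these values. Lyz2, the lysozyme of myeloid cells, read 6.28, 5.53 and 4.80 in wild-type and 7.98, 6.66 and 7.02 in Hsf4-null lenses. The groups did not overlap, but the spread within each was wide, with SDs of 0.74 and 0.68. The difference of 1.68 (SE 0.43, 95% confidence interval 0.69 to 2.67, 3.21-fold) was the highest of the 29 members, with an adjusted p of 0.103. Without 1 array at a time it ran from 1.30 to 2.06. It passed with each array centred on its median (adjusted p = 0.0405) and with the replicate number as a block (adjusted p = 0.0287). Under every single-array omission it failed, with adjusted p of 0.0563 to 0.25. It also failed by the t-test with Benjamini-Hochberg adjustment (0.375) and with 16 added to the intensities before taking logs (0.142). Lyz1, a near-identical neighbour whose probes may share its transcripts, was looked up after these values were seen. Its brightest probe set read 7.01, 6.80 and 5.17 against 8.52, 7.54 and 7.43, and its other probe sets had differences of 1.24 and 0.01, the last dim on every array. Which of the lysozyme genes these probe sets read was not tested.

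Ptprc, the pan-leukocyte CD45, read 4.35, 4.51 and 3.81 in wild-type and 4.78, 4.86 and 4.82 in Hsf4-null lenses, with a difference of 0.60 (SE 0.18, adjusted p = 0.155). Aif1, the calcium-binding protein IBA1 of macrophages and microglia, read 3.80, 3.71 and 3.47 against 4.24, 4.15 and 4.15. Its difference of 0.52 (SE 0.11, adjusted p = 0.066) had the smallest error of the macrophage genes, and taking the mean of all probe sets of each gene in the whole table brought its adjusted p to 0.0492. Neither Ptprc nor Aif1 exceeded the array median on any array. Cd68, a lysosomal glycoprotein of phagocytes, read 4.63, 4.13 and 3.94 against 5.45, 4.46 and 4.71, with overlapping groups and a difference of 0.64 (adjusted p = 0.324). Cd14, a co-receptor for bacterial lipopolysaccharide, was the 1 macrophage gene with a lower Hsf4-null mean, at -0.03 (adjusted p = 0.96).

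Wild-type replicate 3 carried most of the macrophage difference. Without it the median of the 14 differences was -0.05, with 6 genes higher and 8 lower, and over all 6 single-array omissions the median ran from -0.05 to 0.55. Csf1r changed from 0.29 to -0.10, Tyrobp from 0.05 to -0.50, Fcer1g from 0.30 to -0.13 and Mrc1 from 0.50 to -0.01. Lyz2, Ptprc and Aif1 kept differences of at least 0.39 under each omission. The medians of the other groups without that array were 0.25 for vascular and 0.56 for pigment markers.

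The pigment markers held the widest ranges. Tyr, Tyrp1 and Dct encode the enzymes of melanin synthesis, Pmel the protein of the fibrils on which melanin is laid down, Slc45a2 a transporter of the melanosome and Mitf the transcription factor that activates them. Since Mitf activates such genes through the M-box, a sequence with the core CATGTG, the 250 bases before each gene start in RefSeq (GRCm38.p6) are shown for the 3 enzymes. The RefSeq table used held windows for 19 of the 30 members. Capitals mark the run of 10 bases around that core that all 3 windows share.
Tyr, chr7:87493513-87493762, minus strand: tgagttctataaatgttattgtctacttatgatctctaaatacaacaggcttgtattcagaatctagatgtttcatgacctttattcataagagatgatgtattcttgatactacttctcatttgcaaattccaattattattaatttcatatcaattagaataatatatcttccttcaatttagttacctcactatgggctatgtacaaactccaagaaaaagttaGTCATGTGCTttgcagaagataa
Tyrp1, chr4:80833963-80834212, plus strand: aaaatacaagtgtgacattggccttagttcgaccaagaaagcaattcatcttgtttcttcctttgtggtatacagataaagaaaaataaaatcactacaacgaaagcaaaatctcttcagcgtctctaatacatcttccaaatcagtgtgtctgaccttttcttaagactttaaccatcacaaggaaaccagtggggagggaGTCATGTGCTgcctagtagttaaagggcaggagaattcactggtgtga
Dct, chr14:118052247-118052496, minus strand: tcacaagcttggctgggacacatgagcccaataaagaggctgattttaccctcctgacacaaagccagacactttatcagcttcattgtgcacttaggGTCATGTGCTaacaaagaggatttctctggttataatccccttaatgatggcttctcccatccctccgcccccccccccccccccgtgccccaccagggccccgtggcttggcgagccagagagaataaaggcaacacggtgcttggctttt
The shared run starts 23 bases before the gene start in Tyr, 48 in Tyrp1 and 152 in Dct. It occurs in 51 of 32851 windows of this length (0.155%), and among the members also in C1qb. The run was read from the 3 windows themselves, so this share lends no weight to its presence in them. The core alone was found, on either strand, in 3 of the 4 pigment genes with a window, 3 of 9 macrophage and 0 of 6 vascular genes, and in 12.3% of all windows. These letters describe the windows and do not show that Mitf was bound there.

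Tyrp1 read 8.98, 8.61 and 7.27 in wild-type and 9.93, 8.89 and 9.95 in Hsf4-null lenses. Dct read 8.23, 7.58 and 5.45 against 8.82, 7.45 and 8.89. Pmel read 7.47, 6.77 and 5.84 against 8.30, 7.19 and 8.41. In all 3 genes Hsf4-null replicates 1 and 3 were the highest arrays and wild-type replicate 3 the lowest by a wide margin, while Hsf4-null replicate 2 lay within the wild-type range. The differences were 1.30 (SE 0.46, adjusted p = 0.232) for Tyrp1, 1.30 (SE 0.70, adjusted p = 0.432) for Dct and 1.27 (SE 0.45, adjusted p = 0.233) for Pmel, or 2.47-, 2.46- and 2.41-fold. Without wild-type replicate 3 they were 0.79, 0.48 and 0.84, the lowest values of any single omission. The other probe sets of Tyrp1 had differences of 1.19 and 0.99, so its brightest probe set did not stand alone.

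Tyr, the first enzyme of the pathway, read 5.07, 4.44 and 4.76 in wild-type and 5.90, 4.75 and 5.54 in Hsf4-null lenses, with overlapping groups and a difference of 0.64 (adjusted p = 0.35). Its other probe sets gave 0.69 and 0.44. Mitf varied far less than the melanosome genes, at 11.54, 11.31 and 11.40 in wild-type and 11.52, 11.36 and 11.45 in Hsf4-null lenses. All 6 values lay within 0.23, and the difference was 0.03 (95% confidence interval -0.22 to 0.27, adjusted p = 0.932). Its second probe set gave 0.20 (adjusted p = 0.445). Slc45a2 was dim on every array and had a difference of -0.10 (adjusted p = 0.756).

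**Figure D3:**
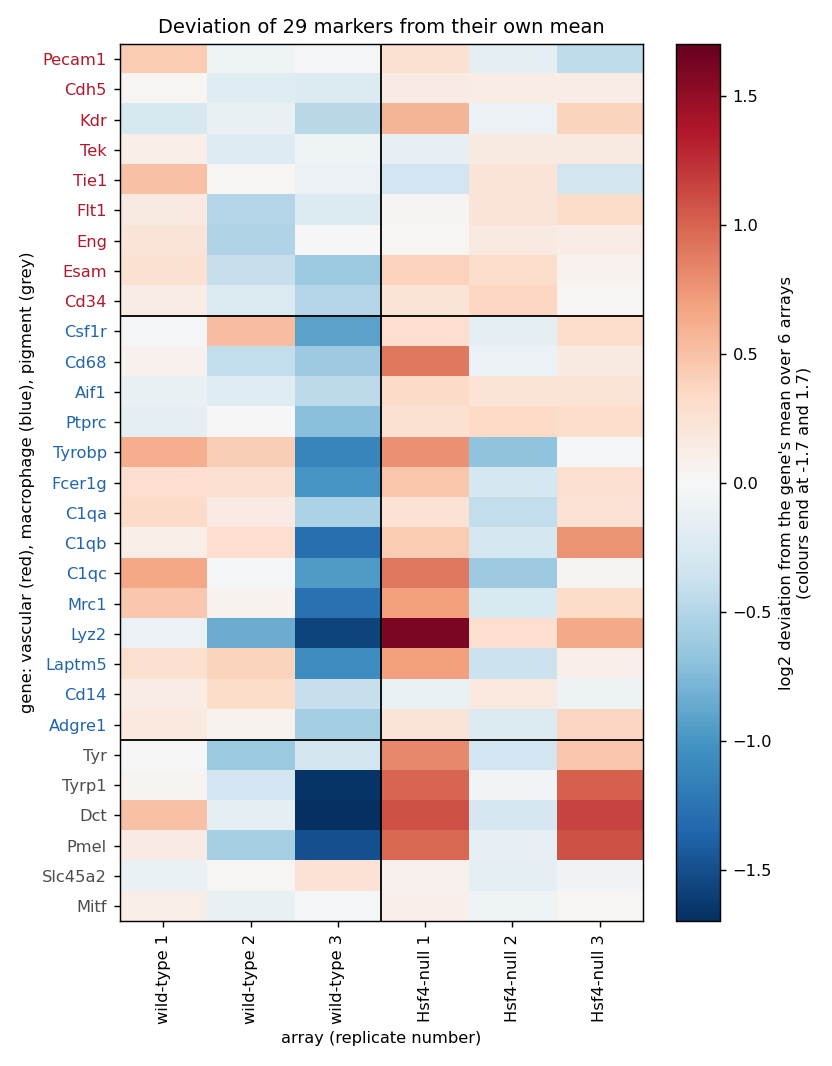
Log2 deviation of each of the 29 markers (rows) from its own mean over the 6 arrays (columns), with red for higher and blue for lower, and vascular, macrophage and pigment genes separated by lines. Wild-type replicate 3 is the lowest array for 21 of the 29 genes, and Hsf4-null replicate 2 is the lowest Hsf4-null array for 19.

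To set the groups side by side, each gene was expressed as the deviation from its mean over the 6 arrays, and the deviations were averaged over a group. The vascular level was 0.17, -0.25 and -0.25 in wild-type and 0.13, 0.14 and 0.05 in Hsf4-null lenses. The macrophage level was 0.19, 0.07 and -0.89 against 0.55, -0.17 and 0.26. The pigment level was 0.11, -0.29 and -0.93 against 0.67, -0.17 and 0.61. In each group the genotypes overlapped, since wild-type replicate 1 was above at least 1 Hsf4-null array, and the differences were 0.22, 0.42 and 0.74. No test was made of these levels. The level of all 12393 genes stayed within 0.02 of 0 on every array, and the array medians lay between 5.22 and 5.38, with Hsf4-null replicate 2 and wild-type replicate 3 the lowest. The RMA normalization gives arrays processed together a common distribution, which by itself holds the level of all genes near 0.

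The groups did not rise and fall in step. Macrophage and pigment levels were both lowest in wild-type replicate 3, lowest among the Hsf4-null arrays in replicate 2 and highest in Hsf4-null replicate 1. The vascular level was as low in wild-type replicate 2 as in replicate 3, and its Hsf4-null arrays, replicate 2 included, lay between 0.05 and 0.14. Of all 29 members, 21 (72.4%) were lowest in wild-type replicate 3, where 23.3% of the genes above the array median on every array had their lowest value.

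**Figure D4:**
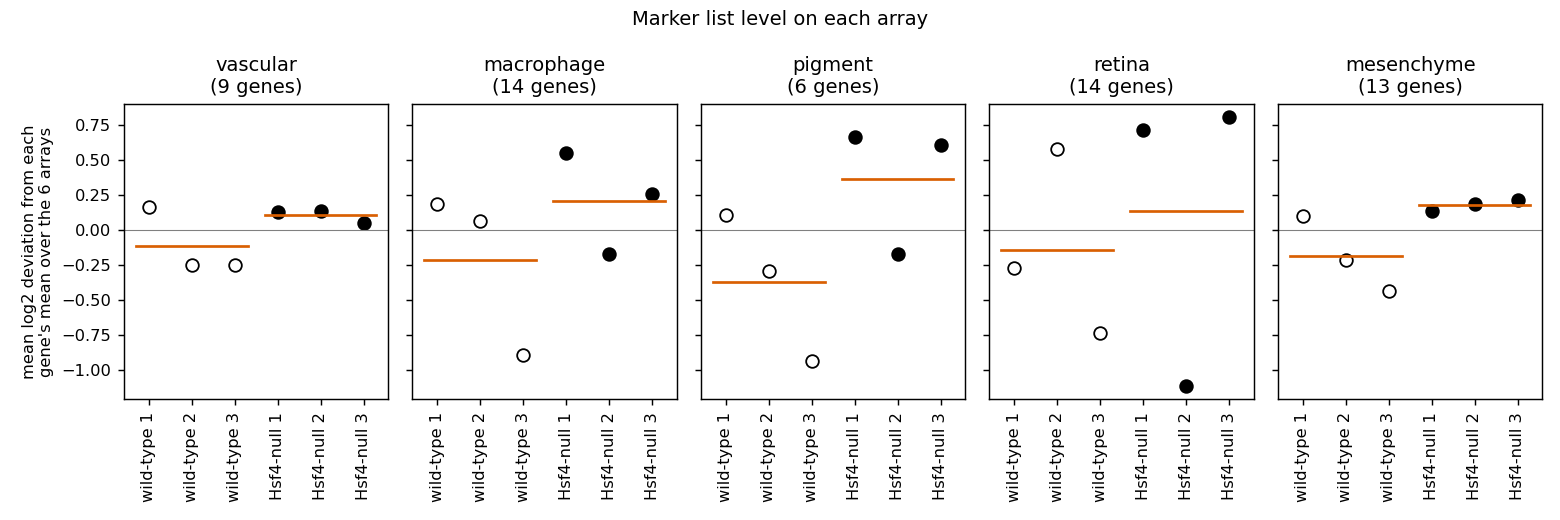
Mean log2 deviation (y axis) of the vascular, macrophage and pigment markers, and of retina and mesenchyme markers, on each array, with wild-type arrays open, Hsf4-null arrays filled and group means in orange. Wild-type replicate 3 is the lowest wild-type array for macrophage, pigment, retina and mesenchyme markers, and Hsf4-null replicate 2 is the lowest Hsf4-null array for macrophage, pigment and retina markers.

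Of the markers of other tissues, those of the retina were lowest on wild-type replicate 3 and Hsf4-null replicate 2 within their groups, like the macrophage and pigment members. Of 18 retina markers 14 were measured, and their level was -0.27, 0.58 and -0.73 in wild-type and 0.72, -1.11 and 0.81 in Hsf4-null lenses. Their summed linear intensity ran from 613.5 to 2051 in wild-type and from 399.5 to 2604 in Hsf4-null lenses, with the lowest sums in wild-type replicate 3 and Hsf4-null replicate 2, as for the macrophage and pigment levels. Of these 14 genes 0 were called, and 1 had an unadjusted p under 0.05, the rod transducin gene Gnat1, at 0.33. Mesenchyme markers (13 of 14 measured) had levels of 0.10, -0.21 and -0.43 against 0.14, 0.19 and 0.22, all Hsf4-null arrays above the wild-type arrays. The median difference of this list was 0.19, and the groups overlapped for 10 of the 13 genes. Of these, 2 were called, the collagen gene Col1a1 (1.89, adjusted p = 0.0201) and the transcription factor gene Twist1 (1.0, adjusted p = 0.00341). Twist1 did not exceed the array median on any array, and the collagen genes Col1a2 and Col3a1 differed by 0.07 and 0.17. The summed intensity of the mesenchyme markers ran from 2023 to 2427 in wild-type and from 2332 to 2897 in Hsf4-null lenses. Lens markers (9 of 12 measured) had levels of 0.17, 0.15 and 0.25 against -0.19, -0.16 and -0.22, with the fibre cell filament gene Bfsp1 and the transcription factor gene Prox1 called lower, at -1.65 and -0.83. The median difference of the lens list was smaller, at -0.15. Cryaa differed by -0.01, but it lay near 14 on every array, close to the highest values measured. Whether its signal had reached the upper limit of the array was not tested. The part of the retina, mesenchyme and lens content in the member differences was not tested.

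Wider lists of the same cell types gave the surroundings of the members. Of 21 measured further endothelial genes 0 were called and 5 had an unadjusted p under 0.05, all higher, with a median difference of 0.24. The 2 with the lowest p among those whose groups did not overlap were Plvap, of the diaphragms of capillary windows, at 0.54 (adjusted p = 0.0817), and Ramp2, a subunit of the adrenomedullin receptor, at 0.53 (adjusted p = 0.114). Of 12 pericyte and smooth muscle genes 0 were called and 4 had an unadjusted p under 0.05, 3 of them higher and 1 lower. The contractile genes Tagln (1.03, adjusted p = 0.109) and Acta2 (1.05, adjusted p = 0.121) were higher on every Hsf4-null array. The lower one, named here after its values were seen, was Abcc9, a subunit gene of the potassium channel of pericytes, at -1.15 (adjusted p = 0.124), with all Hsf4-null arrays below the wild-type arrays. The potassium channel gene Kcnj8, also named after its values were seen, was the remaining higher one, at 0.71 (adjusted p = 0.286), with overlapping groups. The per-array level of the 12 genes, 0.13, -0.25 and -0.20 against 0.17, 0.09 and 0.05, was close to that of the vascular members.

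Among 20 genes of vessel growth and regression signals 1 was called. Angpt2, the angiopoietin that loosens vessel walls through Tek, read 5.59, 5.92 and 5.95 in wild-type and 5.0, 4.65 and 4.77 in Hsf4-null lenses. It fell by 1.01 on the log2 scale (SE 0.14, adjusted p = 0.00959), with no overlap, while its receptor Tek differed by 0.11. The call was lost with the replicate block (adjusted p = 0.0516), by the t-test with Benjamini-Hochberg adjustment added here (0.135) and without Hsf4-null replicate 3 (0.0524).

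Among 26 further macrophage genes 1 was called. Mpeg1, which encodes the pore-forming perforin-2 of macrophages, read 4.54, 4.51 and 4.40 in wild-type and 5.17, 4.96 and 5.49 in Hsf4-null lenses. It rose by 0.72 (SE 0.14, adjusted p = 0.0456), a call that leaving out any array but Hsf4-null replicate 2 took away, with adjusted p of 0.0905 to 0.144 there. It was also lost with the replicate block (0.107), by the adjusted t-test (0.246) and with 16 added to the intensities before taking logs (0.0736). The list as a whole had a median difference of 0.22, and wild-type replicate 3 was its lowest array, at -0.43. Of 14 growth factors and chemokines that act on macrophages 0 were called and 4 had an unadjusted p under 0.05, with Ccl2, a chemokine for monocytes, at 1.15 (adjusted p = 0.0742) and Cx3cl1, the ligand of the microglial receptor Cx3cr1, at -0.52 (adjusted p = 0.182).

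Of 19 measured further genes of pigment cells and pigment epithelium 0 were called and 5 had an unadjusted p under 0.05, 4 of them higher and 1 lower. The tetraspanin gene Tspan10 (0.51, adjusted p = 0.119) and Trpm1, a cation channel gene of melanocytes and retinal bipolar cells (1.07, adjusted p = 0.249), were higher on every Hsf4-null array. The lower one, named after its values were seen, was the endothelin receptor gene Ednrb, at -0.55 (adjusted p = 0.221), with overlapping groups. The median difference of the list was 0.19, against 0.96 for the pigment members, and wild-type replicate 3 was again the lowest array, at -0.44. Blood markers (9 of 12 measured) and cornea and skin markers (11 of 12) had 0 genes called and 2 each at an unadjusted p under 0.05, and their levels ranged over 0.23 and 0.20 across the 6 arrays.

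For the macrophage group the windows before the C1q genes are shown, since C1qb and C1qc lie side by side in the genome and had the same arrays as their lowest and next lowest. Capitals mark GAGGAA or its reverse complement, a core recognised by PU.1, the ETS factor of the myeloid lineage.
C1qb, chr4:136886201-136886450, minus strand: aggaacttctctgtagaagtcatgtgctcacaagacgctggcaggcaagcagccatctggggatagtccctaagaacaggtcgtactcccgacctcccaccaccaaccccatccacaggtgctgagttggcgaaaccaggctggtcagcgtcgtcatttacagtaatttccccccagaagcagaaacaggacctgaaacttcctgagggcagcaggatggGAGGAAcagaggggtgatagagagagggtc
C1qc, chr4:136892915-136893164, minus strand: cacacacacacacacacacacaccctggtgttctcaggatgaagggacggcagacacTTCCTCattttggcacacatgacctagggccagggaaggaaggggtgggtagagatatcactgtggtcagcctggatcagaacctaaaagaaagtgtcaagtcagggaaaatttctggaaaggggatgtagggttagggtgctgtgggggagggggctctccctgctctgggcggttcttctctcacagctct
The core lies 30 bases before the gene start in C1qb and 193 in C1qc, there on the opposite strand. It was found in 7 of the 9 macrophage genes with a window, 3 of 6 vascular and 0 of 4 pigment genes, and in 23.3% of all windows. The half-sites of heat shock factors in their paired forms, GAANNTTC and TTCNNGAA, occurred in 6.69% and 7.17% of all windows and among the members in C1qb for the first and in C1qc and Tek for the second. In all, 8 letter strings were searched on both strands, the others being CANNTG (which overlaps the M-box core), CAGGAA, its longer form ACAGGAAGT, and GAGGAAG (which overlaps the PU.1 core). All were chosen with the expression values known. These matches are descriptions of the letters and not of binding by Hsf4 or PU.1.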

How the data were processed

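Per the labels and the methods, the authors amplified 50 ng of total RNA per lens sample, hybridized it to Affymetrix mouse expression arrays and normalized the intensities by RMA (background correction, a common distribution across arrays, 1 value per probe set). The deposited intensities were on a linear scale and were taken as log2. No source used here gives the software version or which arrays were normalized together. The table held 22690 probe sets, 64 of them controls of the array, which were dropped. Symbols came from the platform annotation, with 20380 of the 22626 probe sets naming 1 gene, 691 several and 1555 none.

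Differences were tested with limma 3.58.1 (R 4.3.3; lmFit and eBayes) on 6 arrays without covariates, and the procedure was tested on simulated data. The methods' t-test was run as an alternative, and SAM, which the methods combine with it, was not run. The members, lists and letter strings were chosen with earlier results of these data known. Values on every array are given for members that did not overlap between groups, had an unadjusted p under 0.05, differed by 0.5 or more or define a cell type. Of other lists, called genes are named, or else up to 2 with the lowest p and no overlap. Windows came from RefSeq, GRCm38.p6, without the bases after the gene start. The limma p-values rest on the spread between 3 arrays per group together with a variance estimated from all probe sets. For the widely spread Lyz2 the unadjusted p was 0.00463 by limma and 0.0447 by the t-test. For Cdh5, whose arrays lay close together, these were 0.0363 and 0.0327. Having 3 arrays per group limits precision, and 3 against 3 cannot give an exact permutation p below 0.1, so no such test was made.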

Additional observations from a re-analysis of the deposited data

How the results depend on the processing

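Of 456 recomputed member differences, 449 stayed uncalled and 7 newly passed, in Cdh5, Aif1, Ptprc and Lyz2. Of the 7, 3 macrophage and 1 vascular passed only an unadjusted p under 0.05, in the methods' t-test. As no member was called in the main test, none could lose or reverse a call. The sign differed in 20 of the 456, over 10 members. Mrc1, whose main difference was 0.50, went to -0.01 without wild-type replicate 3, and Tyrobp, at 0.05, went to -0.50 there and to -0.33 without Hsf4-null replicate 1. Macrophage calls went from 0 to 1 with arrays centred on their medians (Lyz2), to 1 with the mean of all probe sets of a gene (Aif1) and to 3 by the methods' t-test without adjustment (Aif1, Ptprc and Lyz2), and vascular calls to 1 by that test (Cdh5). The causes were not tested. Of all probe sets, 602 were called, 85 by the t-test after adjustment, 2912 without it (1204 higher, 1708 lower) and 366 with 1 probe set per gene tested alone. Leaving out 1 array gave 321 to 562 probe sets called, namely 321 when Hsf4-null replicate 3 was dropped, 335 for replicate 2 and 358 for replicate 3 of the wild type. Under each of these 6 omissions 0 members were called.

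The labels do not say whether the replicate numbers pair the samples. Deviations of same-numbered arrays correlated at 0.25, -0.21 and -0.08, and those of wild-type replicate 3 and Hsf4-null replicate 2 at 0.41. Each deviation is taken from a mean of only 3 arrays, so these correlations constrain each other and cannot decide the question. With the replicate block 382 probe sets and 1 macrophage marker (Lyz2) were called. Pecam1, Tie1, Aif1, Ptprc, C1qa, Cd14, Adgre1 and Slc45a2 never exceeded the array median, which limits what their differences can show.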
